A study of Mus musculus with 5 samples.

Results

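Translation initiation factor genes were described in whole blood of adult female mice from 2 first-generation crosses. The genes were taken by name: every probe set (the group of short probes on the array that reads out a transcript) whose only annotated symbol begins with Eif and a digit from 1 to 6, leaving out the sex-linked genes Eif2s3x and Eif2s3y. This gave 45 genes with 128 probe sets, among 18193 genes with a probe set of 1 symbol and 45101 probe sets on the array. Counts of genes use 1 probe set per gene, the one with the highest mean over the 5 arrays. Of the 45 genes, 40 had such a probe set at or above the median level of the array, 2.51, and were tested. The other 5, Eif2ak2, Eif2ak4, Eif2b5, Eif5a2 and Eif5b, lay below it.

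Total RNA was measured on Affymetrix arrays, 1 array per sample. The AKRxFVB F1 group (AKR/J by FVB/NJ) had 2 samples and the DBAxFVB F1 group (DBA/2J by FVB/NJ) had 3. Both groups carry a set of FVB/NJ chromosomes and differ in the strain of the other parent. The labels name no engineered allele, and no agent other than the Avertin anaesthesia before blood was taken from the heart. The comparison addresses basal differences in blood expression between these genotypes. All values are log2 expression as deposited, and all differences are DBAxFVB F1 minus AKRxFVB F1. Nothing in the labels tells if each sample is another animal, so the p-values measure only how far these samples spread, which may be technical variation.

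Initiation factors bring the small ribosomal subunit, the initiator tRNA and the messenger RNA together. The eIF4F complex (the cap-binding protein eIF4E, the scaffold eIF4G and the helicase eIF4A) recruits the messenger, the large eIF3 complex links it to the small subunit, and eIF2 with eIF1, eIF1A and eIF5 finds the start codon. Supply is controlled mainly at the cap, by the 4E-binding proteins, and at eIF2, whose alpha subunit is phosphorylated by stress kinases. In blood, reticulocytes still translate globin without a nucleus, and the heme-regulated kinase Eif2ak1 (HRI) adjusts that translation to the heme supply.

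Start regions were read from RefSeq (build GRCm38.p6) for the 36 of the 45 genes that matched by symbol, with 49 annotated starts. The other 9 were Eif1a, Eif2b3, Eif3e, Eif3h, Eif3i, Eif4e3, Eif4ebp1, Eif4g2 and Eif6. Messengers of several translation factors begin with a C followed by a run of pyrimidines, the terminal oligopyrimidine tract through which mTOR signalling controls their translation. A C followed by at least 4 pyrimidines (C or T) stood exactly at an annotated start in 1 of the 36 genes (2.78%), against 3.01% of all 27025 genes of the table. Within 3 bases of a start it stood in 6 of the 36 (16.7%), against 13.5% of all genes. The gene with the tract exactly at a start was Eif3f, a subunit among the members with the smallest p below. It is shown with 20 bases before the start and 10 after it (chr7:108934395-108934424, plus strand), with the tract in capitals.

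Eif3f start: gctcttctgttctaggctctCTCTCTTTCT

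The palindrome CACGTG, the E-box bound by factors such as MYC and USF, reads the same on both strands. It stood in the 250 bases before a start in 8 of the 36 genes (22.2%), against 6.86% of all genes of the table, and Eif4e is the textbook example of such a gene. The windows below hold the E-box in capitals for Eif4e and for 5 members whose values are described below, Eif3f, Eif3k, Eif5a, Eif4a1 and Eif4h, with 1 window for each gene. The remaining carriers were Eif1b and Eif5a2. A match is a description of these letters and not evidence of binding.

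Eif4e, 64 bases before a start, chr3:138527192-138527221, plus strand: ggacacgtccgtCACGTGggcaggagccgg
Eif3f, 68 bases before the start, chr7:108934335-108934364, plus strand: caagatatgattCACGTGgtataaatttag
Eif3k, 44 bases before the start, chr7:28981915-28981944, minus strand: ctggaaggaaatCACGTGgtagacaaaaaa
Eif5a, 185 bases before a start, chr11:69921443-69921472, minus strand: aaggggcggggtCACGTGtgtgcgtcatcc
Eif4a1, 189 bases before the start, chr11:69672595-69672624, minus strand: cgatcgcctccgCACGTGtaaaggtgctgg
Eif4h, 96 bases before the start, chr5:134639488-134639517, minus strand: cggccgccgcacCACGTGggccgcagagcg

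Array 3 of DBAxFVB F1 stood apart from the other arrays. The median of its 18 hybridisation controls was 7.99, against 10.01 to 10.12 elsewhere. Its 3-prime minus 5-prime differences for Actb and Gapdh, which rise as RNA degrades, were 1.32 and 1.33, above all other arrays (0.68 to 1.22 for Actb and 0.58 to 1.04 for Gapdh). A member's difference is therefore also given without this array where that moved it by more than 1.5 times or turned its sign. With array 3 set aside, the 3-prime minus 5-prime differences were higher in AKRxFVB F1. For Actb they read 1.22 and 1.03, against 0.82 and 0.68 for DBAxFVB F1 arrays 1 and 2. Gapdh gave 1.04 and 0.73 against 0.62 and 0.58, in the same order. The part of RNA degradation in the differences between the crosses was not tested. Blood cell markers were present: the mean of 7 platelet markers was between 6.57 and 8.54 on the arrays and that of 8 erythroid markers between 7.21 and 8.29. Of 8 heart muscle markers, 4 lay below the filter, and their mean over all 8 was between 2.62 and 3.27.

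No initiation factor gene passed the test, and those nearest to it were mostly lower in DBAxFVB F1 blood. The limma adjusted p was below 0.05 for 0 of 40 genes, as for 0 of all 12421 genes tested (0%). At an unadjusted p below 0.05, 8 of 40 were lower in DBAxFVB F1, against 6.4% of all genes, and 1 was higher, against 3.61%. The 8 were Eif3e, Eif3f, Eif3h, Eif3i, Eif4a2, Eif4g2, Eif5a and Eif1ax, and the 1 was Eif4a3. Every DBAxFVB F1 array lay below every AKRxFVB F1 array for 13 members, against 11.9% of all genes, and above for 3, against 17%.

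In all, 25 of the 40 were lower and the median difference was -0.06, where 41.7% of all tested genes were lower and their median was 0.05. AKRxFVB F1 arrays 1 and 2 gave the highest value for 12 and 9 of the 40 members (30% and 22.5%), against 17.1% and 17.3% of all genes. DBAxFVB F1 array 3 gave the highest value for 11 (27.5%), against 30.6% of all genes. The lowest value came from DBAxFVB F1 arrays 1, 2 and 3 for 9, 12 and 10 members (22.5%, 30% and 25%), against 14.5%, 16.4% and 23% of all genes. AKRxFVB F1 arrays 1 and 2 gave it for 7 and 2 members (17.5% and 5%), against 27.1% and 18.9%. The count of 8 lower genes was 3 with quantile normalization, beside 1 higher, 4 with cyclic loess normalization, and 1 without AKRxFVB F1 array 1, with 0 higher. It was 5, 6 and 11 without DBAxFVB F1 arrays 1, 2 and 3. The shares of all genes below that p in these settings are not given here. Whether the members moved apart from all genes between settings was therefore not tested.

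**Figure D1:**
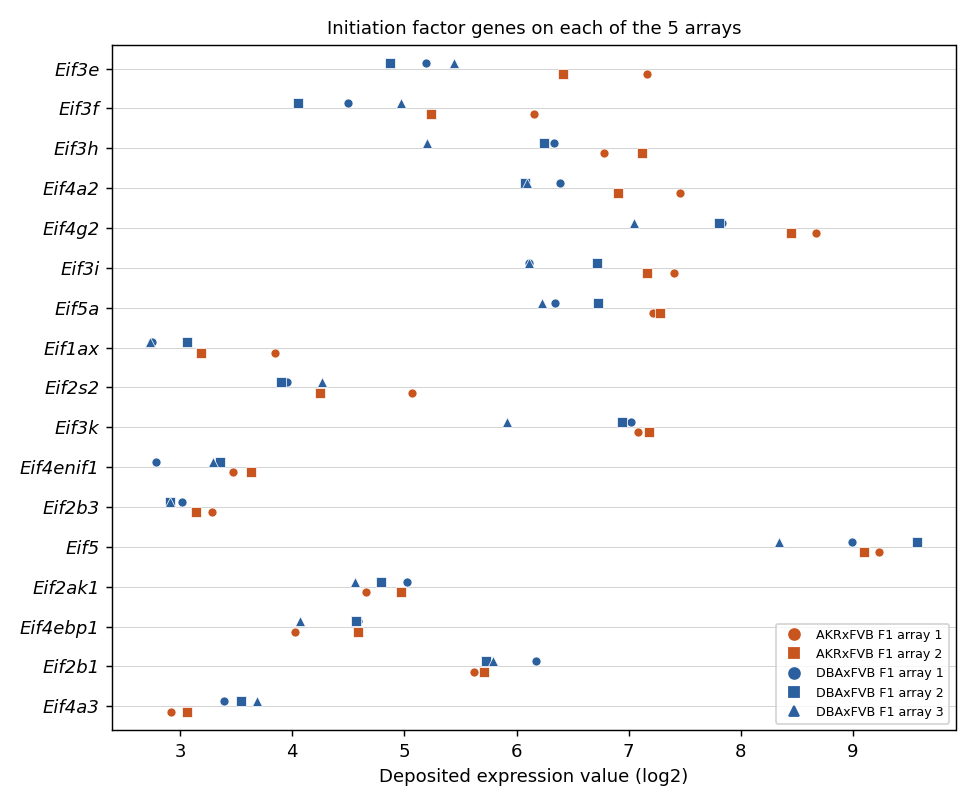
Deposited log2 expression (horizontal axis) of 17 of the genes described with their values, each by its probe set with the highest mean. There is 1 point per array (orange for AKRxFVB F1, blue for DBAxFVB F1, the shape giving the array number). Eif4ebp2 is not shown. Genes are ordered from the lowest to the highest difference, from Eif3e at -1.61 to Eif4a3 at 0.55.

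The eIF3 complex held the members with the largest differences. Of its 11 tested subunits, 9 were lower in DBAxFVB F1 (4 with an unadjusted p below 0.05), and the median difference was -0.33. Over all tested genes, 41.7% were lower (6.4% with an unadjusted p below 0.05), and the median was 0.05. Eif3e, a PCI-domain subunit also known as Int6 from an integration site of the mouse mammary tumour virus, read 7.16 and 6.41 in AKRxFVB F1. In DBAxFVB F1 it read 5.20, 4.88 and 5.45. The groups did not overlap, and the lower AKRxFVB F1 array was clear of the highest DBAxFVB F1 array. The means were 6.79 ± 0.53 (SD, n = 2) and 5.17 ± 0.29 (SD, n = 3), a difference of -1.61 ± 0.33 (SE) or 3.06-fold, with a limma adjusted p of 0.177. It was between -1.99 and -1.24 with any 1 array left out and -1.28 after quantile normalization.

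All 3 tested probe sets of Eif3e were lower in DBAxFVB F1. The other 2 differed by -1.42 and by -1.87 ± 0.29 (SE). The last of these, chosen after its values were seen, had a limma adjusted p of 0.131, the smallest on the whole array and shared by 42 probe sets. Its DBAxFVB F1 mean was 4.60 ± 0.06 (SD, n = 3) against 6.46 ± 0.52 (SD, n = 2) in AKRxFVB F1. Both of these other probe sets carry an array maker's suffix for probes that may also bind other transcripts. A suffix of this kind is also on the brightest probe sets of Eif4g2, Eif5a, Eif3c, Eif3m, Eif2b2, Eif4ebp1 and Eif1a. Their values below may therefore include other transcripts.

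Eif3f, an MPN-domain subunit, read 6.15 and 5.24 in AKRxFVB F1 and 4.50, 4.05 and 4.97 in DBAxFVB F1. The groups did not overlap, but AKRxFVB F1 array 2 and DBAxFVB F1 array 3 lay close together. The difference was -1.19 ± 0.37 (SE, limma adjusted p = 0.344), and -0.73 without AKRxFVB F1 array 1. Eif3h, the other MPN-domain subunit, read 6.78 and 7.12 against 6.33, 6.24 and 5.20. Its lowest value was on DBAxFVB F1 array 3, and the difference of -1.03 ± 0.41 (limma adjusted p = 0.44) was -0.67 without that array.

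Eif3i, a WD-repeat subunit, read 7.40 and 7.16 in AKRxFVB F1 and 6.11, 6.72 and 6.11 in DBAxFVB F1. The groups did not overlap, with a difference of -0.97 ± 0.33 (SE, limma adjusted p = 0.386) that was -0.51 after quantile normalization. Its second probe set differed by -0.81. Eif3k, whose probe set had the highest signal of the complex, read 7.09 and 7.18 against 7.02, 6.94 and 5.91. Here DBAxFVB F1 array 3 alone lay well below the rest, and the difference of -0.51 ± 0.41 (limma adjusted p = 0.692) was -0.16 without it and -0.11 after quantile normalization.

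The remaining 6 subunits had an unadjusted p of 0.05 or more by their brightest probe sets. Eif3a and Eif3b differed by 0.18 ± 0.21 (SE) and 0.26 ± 0.18, and Eif3a by 0.044 without DBAxFVB F1 array 3. Eif3c differed by -0.33 ± 0.43, but by -0.060, -0.15 and -0.78 without DBAxFVB F1 arrays 1, 2 and 3. Dimmer probe sets of Eif3c and Eif3a, chosen after their values were seen, were lower without overlap by -0.68 ± 0.21 and -0.82 ± 0.29 (limma adjusted p = 0.339 and 0.402). For Eif3d, Eif3l and Eif3m the differences were -0.02, -0.09 and -0.09, and without DBAxFVB F1 array 3 Eif3d and Eif3l were at -0.045 and -0.17. The median over the complex was -0.11 after quantile normalization and -0.51 when all probe sets were counted. It was -0.07 without DBAxFVB F1 array 1, -0.15 without array 2 and -0.17 without array 3.

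Among the cap-binding and messenger-recruiting factors, the helicase Eif4a2 and the scaffold Eif4g2 were lower in DBAxFVB F1 at an unadjusted p below 0.05. The other 7 of the 9 tested members had an unadjusted p of 0.05 or more. Of all genes, 6.4% were lower and 3.61% higher at an unadjusted p below 0.05. Eif4a2 read 7.46 and 6.91 against 6.38, 6.07 and 6.09, and the groups did not overlap. Its difference was -1.00 ± 0.32 (SE, limma adjusted p = 0.351), or 2.00-fold, and -0.56 after quantile normalization. Eif4g2, an eIF4G relative that lacks the eIF4E-binding part and serves cap-independent initiation, read 8.67 and 8.45 against 7.83, 7.81 and 7.05. The groups did not overlap and DBAxFVB F1 array 3 was lowest. The difference was -1.00 ± 0.38 (limma adjusted p = 0.429), and -0.48 after quantile and -0.62 after cyclic loess normalization.

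Eif4a1, the main helicase, differed by -0.53 ± 0.32 (SE), lower without overlap. The cap-binding proteins Eif4e, Eif4e2 and Eif4e3 differed by -0.08 ± 0.16, 0.05 ± 0.27 and 0.24 ± 0.24. Without DBAxFVB F1 array 3 Eif4e was at -0.033 and Eif4e3 at 0.13, and Eif4e3 was at 0.046 without AKRxFVB F1 array 2. The scaffold Eif4g3 differed by 0.09 ± 0.24, and the helicase cofactors Eif4b and Eif4h by 0.02 ± 0.24 and -0.04 ± 0.23, or -0.099 and -0.20 without DBAxFVB F1 array 3. Each of these differences with all arrays was smaller than 2 of its standard errors. The related helicase Eif4a3, which belongs to the exon junction complex rather than to initiation, was the only one of the 40 genes higher in DBAxFVB F1 with an unadjusted p below 0.05. It read 2.92 and 3.07 in AKRxFVB F1 and 3.39, 3.55 and 3.68 in DBAxFVB F1, so the groups did not overlap. The difference was 0.55 ± 0.17 (limma adjusted p = 0.33), between 0.47 and 0.62 with any 1 array left out and 0.51 after quantile normalization.

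Of the 8 tested factors of start codon recognition and initiator tRNA delivery, 4 were lower and 4 higher. Eif1ax, the X-linked gene of eIF1A, read 3.85 and 3.19 against 2.75, 3.06 and 2.74. The groups did not overlap, though AKRxFVB F1 array 2 was close to DBAxFVB F1 array 2, and the difference of -0.67 ± 0.23 (SE, limma adjusted p = 0.385) was -0.33 without AKRxFVB F1 array 1. Eif2s2, the beta subunit of eIF2, read 5.06 and 4.25 against 3.96, 3.90 and 4.26, so AKRxFVB F1 array 2 fell within the DBAxFVB F1 range. Its difference was -0.62 ± 0.28 (limma adjusted p = 0.509), -0.21 without AKRxFVB F1 array 1 and -1.02 without array 2.

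Eif5, the GTPase activator of eIF2, with the highest signal of all members, read 9.23 and 9.10 against 8.99, 9.57 and 8.34. The groups overlapped, with DBAxFVB F1 arrays 2 and 3 at the top and the bottom. The difference of -0.20 ± 0.44 (SE, limma adjusted p = 0.893) took the opposite sign without DBAxFVB F1 array 3 (0.12) and after quantile normalization (0.39). The remaining factors, Eif1a, Eif1ad, Eif1b, Eif2a and Eif2d, differed by between -0.01 and 0.17, and by between -0.073 and 0.20 without DBAxFVB F1 array 3. Leaving out that array turned Eif2a from 0.14 to -0.041. It moved Eif1ad from 0.053 to 0.017, Eif2d from 0.11 to 0.024 and Eif1b from -0.0069 to -0.073.

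The exchange factor eIF2B, which reloads eIF2 with GTP, was mixed. Eif2b1, its alpha subunit, read 5.62 and 5.71 against 6.17, 5.73 and 5.79. All DBAxFVB F1 arrays were above both AKRxFVB F1 arrays, by a narrow margin on array 2, and the difference was 0.23 ± 0.28 (SE, limma adjusted p = 0.787), or 0.51 after quantile normalization and 0.10 without DBAxFVB F1 array 1. Eif2b3, the gamma subunit, read 3.28 and 3.14 against 3.02, 2.91 and 2.91, lower without overlap, with a difference of -0.27 ± 0.15 (limma adjusted p = 0.571). Eif2b2 and Eif2b4 differed by -0.63 ± 0.41 and 0.06 ± 0.21, and by -0.19 and 0.19 without DBAxFVB F1 array 3.

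Of the 4 kinases that phosphorylate eIF2, 2 were at a tested level. Eif2ak1 read 4.66 and 4.97 against 5.02, 4.79 and 4.56, and the groups overlapped fully. The difference was -0.02 ± 0.25 (SE, limma adjusted p = 0.984), and 0.095 without DBAxFVB F1 array 3. Eif2ak3 (PERK, the kinase of endoplasmic reticulum stress) differed by 0.10 ± 0.17, or 0.043 without that array. Eif2ak2 (PKR) and Eif2ak4 (GCN2) lay below the filter, with means of 2.41 and 2.25 over the 5 arrays.

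Of the 3 tested inhibitors and transporters of eIF4E, none had an unadjusted p below 0.05, against 6.4% of all genes lower and 3.61% higher. By their brightest probe sets, 2 were lower without overlap, against 11.9% of all genes. Eif4ebp1 read 4.02 and 4.59 against 4.58, 4.56 and 4.07, and the groups overlapped (0.10 ± 0.27, SE, limma adjusted p = 0.917). Leaving out AKRxFVB F1 array 1 gave -0.19, and leaving out DBAxFVB F1 array 3 gave 0.27. Eif4ebp2, a further 4E-binding protein, read 4.20 and 4.26 against 3.64, 4.09 and 3.96, lower without overlap. Its difference was -0.34 ± 0.21, and -0.21 without DBAxFVB F1 array 1. Only 2 of the 5 tested probe sets of Eif4ebp2 were lower, and the 5 ranged from -0.34 to 0.33. Eif4enif1, the transporter of eIF4E into the nucleus, read 3.47 and 3.64 against 2.79, 3.36 and 3.29. It was lower without overlap, most of all on DBAxFVB F1 array 1, by -0.41 ± 0.21 (limma adjusted p = 0.548), and by -0.23 without that array.

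Eif5a, the hypusine-bearing factor that helps elongation past difficult peptide bonds, read 7.22 and 7.28 against 6.35, 6.73 and 6.23. The AKRxFVB F1 arrays were almost equal and both above all DBAxFVB F1 arrays. The difference was -0.81 ± 0.31 (SE, limma adjusted p = 0.428), or -0.36 after quantile and -0.54 after cyclic loess normalization. Eif6, which keeps the ribosomal subunits apart, differed by -0.00310 ± 0.27, or -0.26 without DBAxFVB F1 array 3.

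The differences went with the level of the probe set. All 7 members with a mean of 6 or more were lower in DBAxFVB F1, with a median of -0.97, where 79.4% of the 778 genes in that range were lower and their median was -0.42. In the range from 4 to 6 the median was -0.04 for 15 members and 0.02 for all 2697 genes. From 3 to 4 it was 0.02 for 16 members and 0.08 for all 4651 genes. For the brightest range the medians of members and of all genes were -0.48 and 0.02 after quantile normalization. They were -0.62 and -0.07 after cyclic loess normalization, and -0.71 and -0.06 without DBAxFVB F1 array 3. Eif3e and Eif3f, with means of 5.82 and 4.98, lay in the range from 4 to 6, where all genes had a median of 0.02. Eif3e was near the upper end of that range, beyond which the median of all genes was -0.42. The part of level in their differences was not tested.

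**Figure D2:**
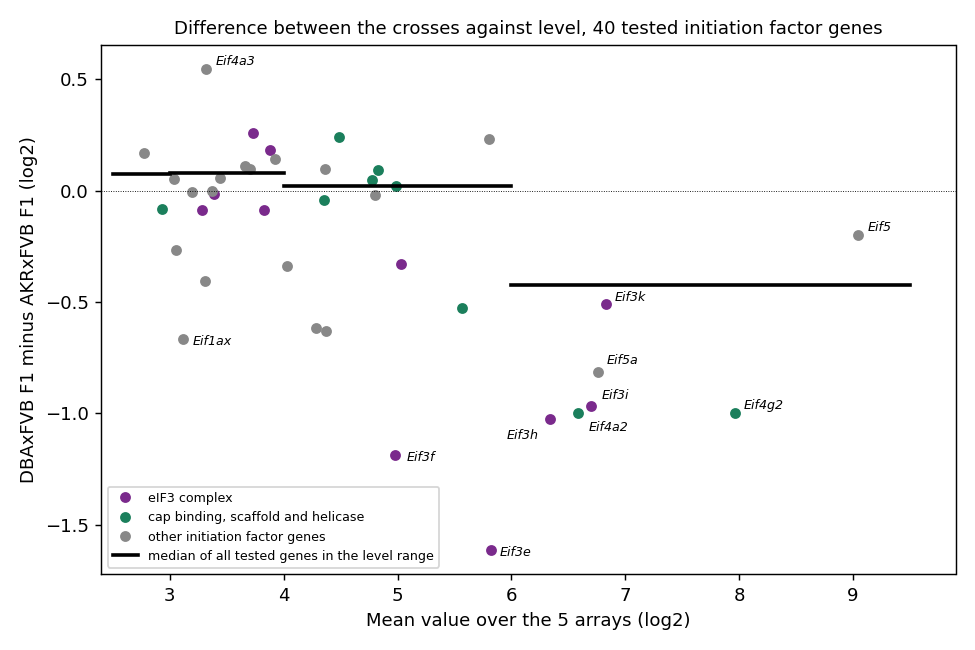
Difference between the crosses (vertical axis, log2) against the mean over the 5 arrays (horizontal axis, log2) for the 40 tested initiation factor genes, coloured by role. Black lines mark the median of all tested genes in each of 4 level ranges (-0.42 in the highest, which runs on beyond the axis), and Eif3e at -1.61 and Eif3f at -1.19 lie farthest below the line of their range.

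Probe sets of a gene often disagreed. Of the 25 genes with 2 or more tested probe sets, all had the same sign in 10, lower in 8 and higher in 2, and signs were mixed in 15. Over all 92 tested probe sets of the members, 60 were lower, against 43.2% of all tested probe sets. At an unadjusted p below 0.05, 17 were lower, against 6.79% of all, and 2 were higher, against 3.59%. Eif3e, Eif3i, Eif4a1, Eif4h, Eif5, Eif5a, Eif2b2 and Eif4e were lower in every tested probe set. Eif4h ranged from -1.07 to -0.04, and its brightest probe set gave the smallest difference. Eif4g2 ranged from -1.00 to 0.43, the highest value coming from its dimmest tested probe set. Eif3a ranged from -0.82 to 0.18, so its value above rests on 1 of 3 probe sets. The same holds for Eif4b, which ranged from -0.62 to 0.02. Eif4a1 ranged from -0.84 to -0.28.

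**Figure D3:**
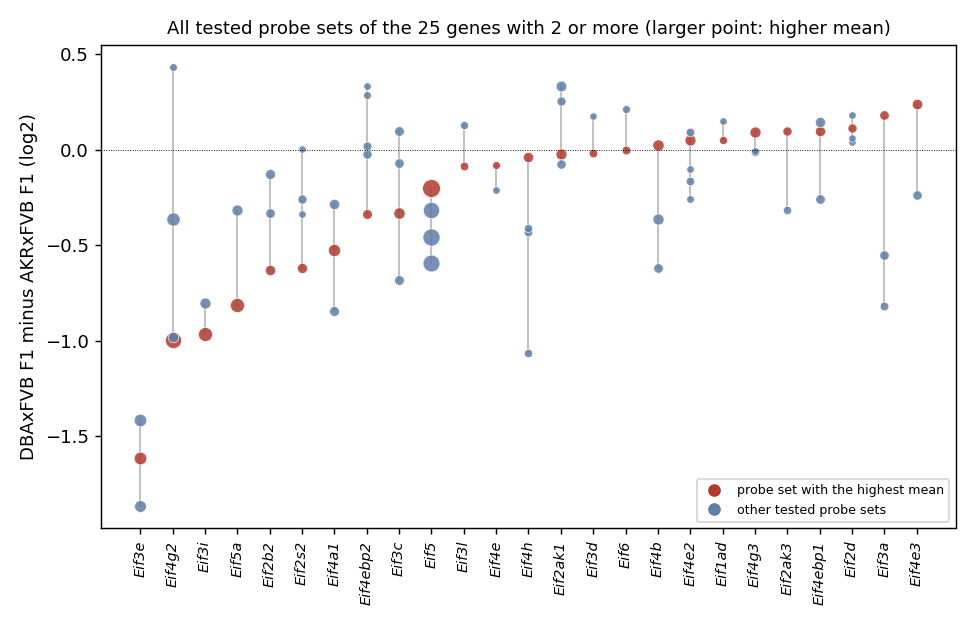
Difference between the crosses (vertical axis, log2) for every tested probe set of the 25 genes with 2 or more, in red for the probe set with the highest mean and blue for the others, point size growing with the mean. The 3 probe sets of Eif3e lie between -1.87 and -1.42, apart from those of the other genes, whereas Eif4g2 and Eif4h spread over more than 1 log2 unit.

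Genes that work with the initiation factors were taken from 4 lists. No gene of any list passed at a limma adjusted p below 0.05. Of 20 tested helpers and controllers of initiation, 13 were lower, 3 at an unadjusted p below 0.05, and the median was -0.32. Over all tested genes, 41.7% were lower, 6.4% at an unadjusted p below 0.05, and the median was 0.05. The median level of the 20 was 5.19, in the range where 47.4% of all genes were lower with a median of 0.02. Genes of the list lay in more than 1 level range, so that range does not stand for all 20. Pdcd4, an inhibitor that binds the eIF4A helicase, read 7.48 and 6.73 against 5.48, 5.87 and 5.43, lower without overlap. Its difference was -1.51 ± 0.34 (SE, limma adjusted p = 0.195), between -1.89 and -1.14 with any 1 array left out and -1.14 after quantile normalization. Bzw1, a mimic of eIF5, differed by -0.72 ± 0.21 (limma adjusted p = 0.292).

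All 9 tested elongation and release genes were lower (0 with an unadjusted p below 0.05), with a median of -0.26. Their median level was 6.11, in the range where 79.4% of all genes were lower with a median of -0.42. That range need not hold all 9 genes. The elongation factors Eef1a1 and Eef2 differed by -0.78 ± 0.35 (SE) and -0.72 ± 0.32, and by -0.28 and -0.14 after quantile normalization. In the mTORC1 and S6 kinase list the median was 0.03 and 3 of 8 were lower, against 41.7% of all genes. At an unadjusted p below 0.05, 1 was lower, against 6.4% of all genes. That 1 was Rheb, the GTPase that switches mTORC1 on, at -0.71 ± 0.22 (limma adjusted p = 0.338), while Mtor differed by 0.24 ± 0.25, or 0.042 without DBAxFVB F1 array 3. In the integrated stress response list, which follows eIF2 phosphorylation, 4 of 9 were lower, against the same 41.7% of all genes. Of the 9, 0 had an unadjusted p below 0.05, and the median was 0.0027. Ppp1r15b, a regulatory subunit of the eIF2 phosphatase, differed by -0.42 ± 0.26, or -0.15 with AKRxFVB F1 array 1 left out and -0.22 with DBAxFVB F1 array 1 left out. Sesn2 differed by 0.17 ± 0.18, or 0.10 without DBAxFVB F1 array 3.

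Markers of blood cell types moved between the arrays as well. Over all tested genes, 41.7% were lower in DBAxFVB F1. Of 7 B cell markers, 6 were lower in DBAxFVB F1, and their mean level was 5.55 and 4.54 in AKRxFVB F1, against 3.96, 4.01 and 4.63 in DBAxFVB F1. All 7 T cell markers were lower, with means of 3.89 and 4.04 against 3.72, 3.27 and 3.21. All 7 platelet markers were lower, with means of 7.47 and 8.54 against 7.94, 8.14 and 6.57. The platelet means of DBAxFVB F1 arrays 1 and 2 lay between those of the AKRxFVB F1 arrays, and only array 3 lay below both. Erythroid markers, 3 of 8 lower, had means of 7.81 and 7.99 against 7.76, 8.29 and 7.21. Neutrophil markers, 2 of 7 lower, had means of 4.92 and 4.42 against 4.58, 4.52 and 5.02. Monocyte markers, 5 of 8 lower, had means of 5.24 and 4.99 against 4.63, 4.72 and 4.99. The part of these shifts in the values of the initiation factors was not tested, and in whole blood fewer cells of a type and less RNA per cell cannot be told apart.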

How the data were processed

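The values deposited by the authors, 1 for each probe set on each array, were taken as log2 expression from the range of the values (1.29 to 14.8), since the base is not given in the sources used here. MAS5 and RMA are both named, per the submitters' processing notes, without saying which gave these values, so the background correction is unknown and differences of dim probe sets may be compressed. Array annotation named genes, and the gene identifiers of all 128 probe sets matched RefSeq symbols of GRCm38.p6. Samples were grouped by the cross in their source label.

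The 45037 probe sets other than controls were filtered at their median mean, leaving 22519, and compared by limma 3.58.1 under R 4.3.3 (lmFit, eBayes with a variance trend, 3 residual degrees of freedom, two-sided). P-values were adjusted by Benjamini-Hochberg over all 22519, and the fit was tested on simulated data. The planted differences were larger than that of any initiation factor gene, so the simulation does not show how well smaller differences are found. With 2 arrays against 3, an exact permutation test cannot go below 0.1 and was not used. The number of arrays limits the precision.

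Values on every array are given for the 12 tested members with the smallest p and the brightest of each role. Up to 2 genes were named per outside list. Such values are also given for Eif4ebp2, a member outside this rule, and for Pdcd4 of the outside lists. Members and lists were chosen with earlier results of these data known. Alternatives were other normalizations, filters, variance models, array weights, a replicate block, other probe set rules, another threshold and each array left out. Python 3.11.15 with pandas 2.3.3 and matplotlib 3.10.9 made the summaries and plots.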

Additional observations from a re-analysis of the deposited data

How the results depend on the processing

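No initiation factor gene had a limma adjusted p below 0.05 under any alternative. In the main setting none was below 0.1 either, but with array weights Eif3e was at 0.0794, and with the replicate block Eif3e was at 0.0787 and Eif3f at 0.079. How many other probe sets of the array were below 0.1 in these settings is not given here. These values therefore do not set Eif3e and Eif3f apart from other genes. The count of members lower at an unadjusted p below 0.05 was 8, and it was 3 with quantile and 4 with cyclic loess normalization, 17 of 92 when every probe set was counted, and between 1 and 11 with 1 array left out. The count of higher members was 1, and it was 2 without a filter or with every probe set and between 0 and 1 with 1 array left out. The median difference of the members was -0.06, and it was -0.10 after median centring, -0.11 with every probe set, -0.13 with the median over a gene's probe sets and between -0.15 and -0.029 with 1 array left out. The eIF3 median was -0.33, and it was -0.11 after quantile and -0.23 after cyclic loess normalization, -0.51 with every probe set or the median over them, and between -0.38 and -0.068 with 1 array left out. Where an AKRxFVB F1 array was left out, the lone remaining array was assumed to vary like the other group. With the replicate number as a block the medians were -0.11 for the members and -0.17 for eIF3, equal to those without DBAxFVB F1 array 3, whose number no other array shares. The replicate block gave 12 lower members. Apart from the count over every probe set, the counts in these alternatives stand without the share of all genes in the same setting. Deviations of same-numbered arrays correlated at -0.26 and 0.17, so the numbers were not taken to pair the samples.

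Of 25 named genes, 22 kept their direction in all alternatives that were run. Most of the 25 were named for a small p in these same arrays, so a kept direction was largely set by that choice. It does not speak for the other members, of which several, such as Eif2a and Eif6, changed sign with an array left out. Eif5 changed sign after quantile (0.39) and cyclic loess normalization (0.26), with array weights (0.0012) and with the replicate block (0.12). Eif2ak1 did so after quantile normalization (0.076), with array weights (0.039) and with the replicate block (0.095), and with 1 array left out it lay between -0.18 and 0.14. Eif4ebp1 lay between -0.19 and 0.38 with 1 array left out, and Eif5 between -0.50 and 0.12. The cause of these changes was not tested. Signal over background is not known for these values, so low readings have no stated limit of detection.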
